A study of Mus musculus with 4 samples.

Results

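The genes of 7 receptors for autonomic and vasoactive signals were followed in hearts of newborn mice, at P0. The genes were chosen by name as a list of receptors: the adrenergic receptors Adra1a, Adra1b and Adrb1, the muscarinic receptor Chrm2, the angiotensin receptor Agtr1a and the endothelin receptors Ednra and Ednrb. All 7 were found among the 43346 gene identifiers of the count files, and all 7 were among the 16009 genes that passed the filter on low counts. RNA sequencing compared 2 libraries from MRTFA/B double knockout hearts, labelled with a mixed strain background, with 2 libraries from wild type (WT) hearts, labelled ICR. Both groups were P0 hearts, and no treatment is labelled. MRTFA and MRTFB are myocardin-related coactivators through which SRF drives actin and contractile genes. The sources used here do not give the alleles, a Cre driver or any pooling of hearts. Since the strain label follows the genotype label in all 4 libraries, strain and genotype cannot be told apart in any comparison that follows. Nothing in the labels ties the libraries of a group to separate animals, so p-values here reflect only library-to-library spread, and that spread could be technical.

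These receptors are G protein coupled receptors with different partners. Beta-adrenergic receptors act through Gs, adenylyl cyclase and cAMP-dependent protein kinase to raise heart rate and force. The M2 muscarinic receptor acts through Gi and Go, which lower cAMP and, through G protein beta-gamma subunits, open a potassium channel built from the products of Kcnj3 and Kcnj5, and so slows the atria and the pacemaker. Alpha-1 adrenergic, type 1 angiotensin and endothelin receptors couple mainly to Gq, phospholipase C beta and calcium release, and are known for constriction of vessels and growth of heart muscle cells.

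Total counts were 27328195 and 16175259 in double knockout libraries 1 and 2, and 29460641 and 25205257 in WT libraries 1 and 2. Levels are given as CPM, counts scaled by the size of their library, after TMM scaling, and 3 counts in 1 library correspond to 0.106 to 0.184 CPM. Mrtfa was at 3.35 and 2.26 CPM in double knockout hearts, against 9.06 and 11.1 CPM in WT hearts, and its groups did not overlap. Its log2 fold change was -1.82 (SE 0.26), with an edgeR adjusted p of 0.120 and a DESeq2 adjusted p of 1.21e-05. Mrtfb was at 46.0 and 49.6 CPM in double knockout hearts, against 46.9 and 56.8 CPM in WT, and its groups overlapped (log2 fold change -0.12, SE 0.13). Since the alleles are not given, it is not known whether a count over the whole gene would fall in the knockout. The levels of the 2 genes therefore do not check the label. The 10 heart muscle markers, such as Myh6 and Tnnt2, summed to 42956 and 40147 CPM in double knockout and 45368 and 44372 CPM in WT, while 4 lung markers summed to no more than 0.489 CPM in any library. Mitochondrially encoded genes held 11.5% and 11.4% of the counts in double knockout and 12.6% and 13.5% in WT.

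Levels between genes were compared as CPM per kilobase of merged exon length. In double knockout hearts Chrm2 had the highest level per kilobase, 46.8 ± 9.88 CPM per kb (mean ± SD, n = 2), followed by Ednrb at 26.6 ± 9.28, Ednra at 22.0 ± 3.67, Agtr1a at 10.4 ± 1.18, Adrb1 at 5.04 ± 1.06, Adra1b at 4.45 ± 3.12 and Adra1a at 0.137 ± 0.00583 CPM per kb. In WT hearts Ednrb came first at 32.1 ± 9.78 CPM per kb, followed by Chrm2 at 17.7 ± 4.0, Ednra at 17.6 ± 1.30, Agtr1a at 10.2 ± 0.271, Adra1b at 7.08 ± 1.06, Adrb1 at 5.30 ± 1.26 and Adra1a at 0.0369 ± 0.00646 CPM per kb (n = 2). Neighbours in these orders whose libraries overlapped were Ednrb with Ednra and Adrb1 with Adra1b in double knockout, and Chrm2 with Ednra in WT. Chrm2 made up 34.3% and 46.9% of the summed level per kilobase of the 7 receptors in the double knockout libraries, and 24.0% and 15.7% in the WT libraries. The sum itself was 116 and 115 CPM per kb in double knockout and 85.4 and 94.7 CPM per kb in WT.

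**Figure D1:**
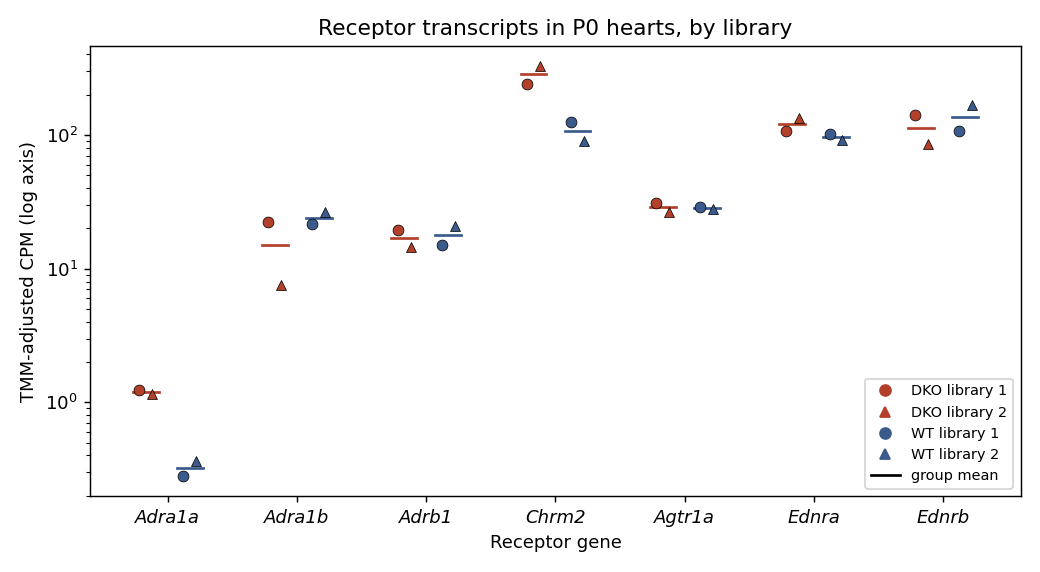
TMM-adjusted CPM of the 7 receptors (log axis) in each library; circles are library 1 and triangles library 2 of each group, double knockout (DKO) left of WT, and bars are group means. The double knockout points lie apart from and above the WT points for Adra1a, Chrm2 and Ednra, while the groups overlap for the other 4.

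By edgeR's quasi-likelihood test with Benjamini-Hochberg adjustment over all tested genes, 0 of the 7 receptors passed an adjusted p of 0.05, a threshold passed by 0.075% of all genes (0.0125% higher and 0.0625% lower). Fold changes were positive for 4 of the 7, where 51.3% of all genes had a positive one. At an unadjusted p under 0.05 stood 2 of the 7, Chrm2 and Adra1a, where 17.3% of all genes did. DESeq2 called 1 of the 7, Chrm2, and 3.81% of the genes to which it gave an adjusted p. Both double knockout libraries lay above both WT libraries for 3 receptors, Chrm2, Adra1a and Ednra, and below them for 0; the shares among all tested genes were 25.8% above and 25.2% below. The median log2 fold change of the receptors was 0.02, and that of all tested genes 0.01. None of the 7 genes lies on chromosome 15 or 16, where Mrtfa and Mrtfb are.

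**Figure D2:**
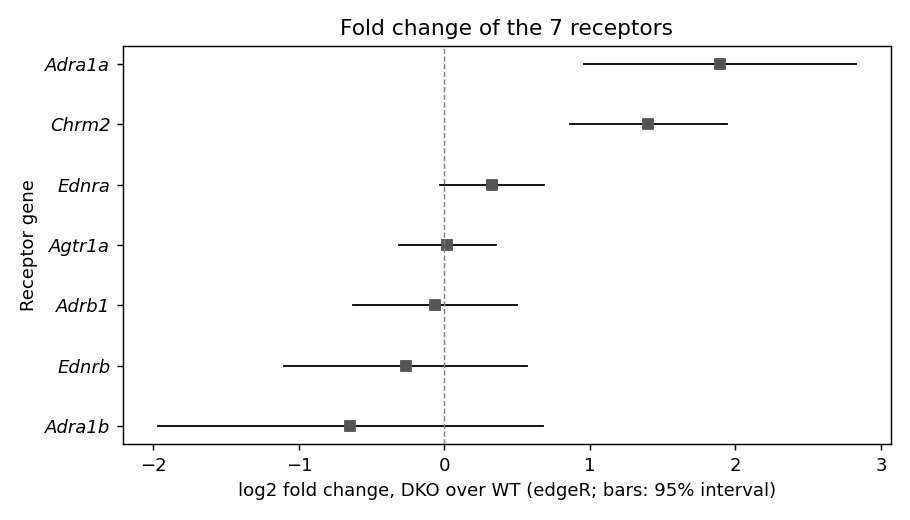
Log2 fold change, double knockout over WT, of the 7 receptors from edgeR, with bars for the 95% interval of the fit. The intervals of Adra1a (0.96 to 2.83) and Chrm2 (0.86 to 1.94) lie above 0, and those of the other 5 receptors span 0.

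Chrm2, the M2 muscarinic receptor of the vagal brake on the heart, was the receptor with the clearest difference. Chrm2 (ENSMUSG00000045613, chromosome 6, 36388084 to 36528414, plus strand, mm10) was at 241 and 326 CPM in double knockout hearts, against 124 and 90.1 CPM in WT hearts. The groups did not overlap, and the libraries within a group differed by 1.35-fold in double knockout and 1.38-fold in WT. The log2 fold change was 1.40 (SE 0.22), with an edgeR adjusted p of 0.121 and a DESeq2 adjusted p of 1.57e-06. Leaving out double knockout library 1 or 2 gave 1.60 and 1.17, with edgeR adjusted p-values of 0.00164 and 0.0145; the remaining double knockout library is then assumed to vary like the WT pair. Leaving out WT library 1 or 2 gave edgeR adjusted p-values of 0.666 and 0.509. In this bulk tissue, more cells of a type and more RNA per cell cannot be told apart.

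Around the Chrm2 gene, 5 other genes within 1 Mb were tested. The non-coding gene 9330158H04Rik, which overlaps Chrm2 on the opposite strand, was at 8.36 and 9.97 CPM in double knockout, against 3.10 and 3.94 CPM in WT, that is 1.38 on the log2 scale (SE 0.23; edgeR adjusted p = 0.121). It shares 134 identical bases with the Chrm2 transcript, and the sources used here do not say whether counting used strand, so its reads cannot be told apart from those of Chrm2 there. The log2 fold changes of the other 4, Mtpn, Ptn, Dgki and Creb3l2, lay between -0.14 and 0.25.

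The promoter of Chrm2 is shown with those of the endothelin receptor pair because SRF, the partner of the deleted coactivators, binds a sequence called the CArG box. Each line gives the 250 bases before the RefSeq start in GRCm38.p6, read 5′ to 3′ on the strand of the gene, with capitals where a stretch matches the CArG box at all but 1 base.

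Chrm2 (chr6:36387834-36388083, plus strand): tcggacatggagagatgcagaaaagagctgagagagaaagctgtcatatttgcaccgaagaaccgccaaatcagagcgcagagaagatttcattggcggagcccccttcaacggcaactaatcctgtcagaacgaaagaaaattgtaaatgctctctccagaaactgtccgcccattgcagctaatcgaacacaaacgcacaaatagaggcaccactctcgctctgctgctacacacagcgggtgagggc

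Ednra (chr8:77724453-77724702, minus strand): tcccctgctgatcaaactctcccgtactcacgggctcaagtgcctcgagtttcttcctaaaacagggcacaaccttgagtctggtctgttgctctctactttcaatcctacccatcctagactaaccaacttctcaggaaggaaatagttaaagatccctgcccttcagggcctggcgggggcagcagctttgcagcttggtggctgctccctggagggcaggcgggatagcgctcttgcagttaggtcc

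Ednrb (chr14:103843702-103843951, minus strand): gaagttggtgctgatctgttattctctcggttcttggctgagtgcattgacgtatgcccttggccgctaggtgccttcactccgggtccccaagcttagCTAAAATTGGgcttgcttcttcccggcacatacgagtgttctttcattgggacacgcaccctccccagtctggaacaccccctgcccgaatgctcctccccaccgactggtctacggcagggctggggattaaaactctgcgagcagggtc

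No exact CArG box was found on either strand in the 6 windows available for 5 of the receptors (Adra1b has 2 starts), where 1.47% of 32851 promoter windows of that length hold one. A match with 1 mismatch was found in the Ednrb window, beginning 151 bases before the start, and in none of the others; 17.5% of all windows hold such a match. The motif TGACG, the core of a cAMP response element, was found on either strand in the Ednrb and Adrb1 windows and in 17.8% of all windows. The share of G and C was 50% in the Chrm2 window, 54.8% for Ednra, 56.8% for Ednrb and 74% for Adrb1, with a median of 52.4% over all windows. For Adra1b it was 41.6% at the outer start and 72.8% at the inner one.

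Among the 145 tested genes of the signalling lists DESeq2 called 3, all higher, a share near the 2.01% of all genes that it called higher. They are G protein and potassium channel subunits, and are given here since M2 receptors are known to act through such proteins; Gng2 serves many other receptors too. Gng2, a G protein gamma subunit, was at 154 and 246 CPM in double knockout, against 90.1 and 90.4 CPM in WT (log2 fold change 1.15, SE 0.23). Gnao1, the alpha subunit of Go, was at 28.2 and 23.1 CPM in double knockout, against 11.1 and 16.4 CPM in WT (log2 fold change 0.90, SE 0.22). Kcnj3, a subunit of the acetylcholine-gated potassium channel, was at 86.0 and 87.4 CPM in double knockout, against 22.2 and 44.1 CPM in WT (log2 fold change 1.39, SE 0.33). For these 3 genes the groups did not overlap, with DESeq2 adjusted p-values of 4.47e-04 for Gng2, 0.0285 for Gnao1 and 7.20e-04 for Kcnj3. In edgeR none of the 3 passed, with adjusted p-values of 0.148, 0.166 and 0.178 for Gng2, Gnao1 and Kcnj3. Kcnj5, the partner subunit of the channel, was at 239 and 105 CPM in double knockout, against 134 and 175 CPM in WT, so its groups overlapped. Gnai1, another Gi subunit, was at 48.4 and 47.2 CPM in double knockout, against 65.0 and 56.7 CPM in WT (log2 fold change -0.35, SE 0.12, edgeR adjusted p = 0.226). Of the 18 tested G protein subunit genes, 6 had a positive and 12 a negative fold change (median -0.07). Both double knockout libraries lay above both WT libraries for 3 of them and below for 9, where 25.8% and 25.2% of all genes were so placed.

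**Figure D3:**
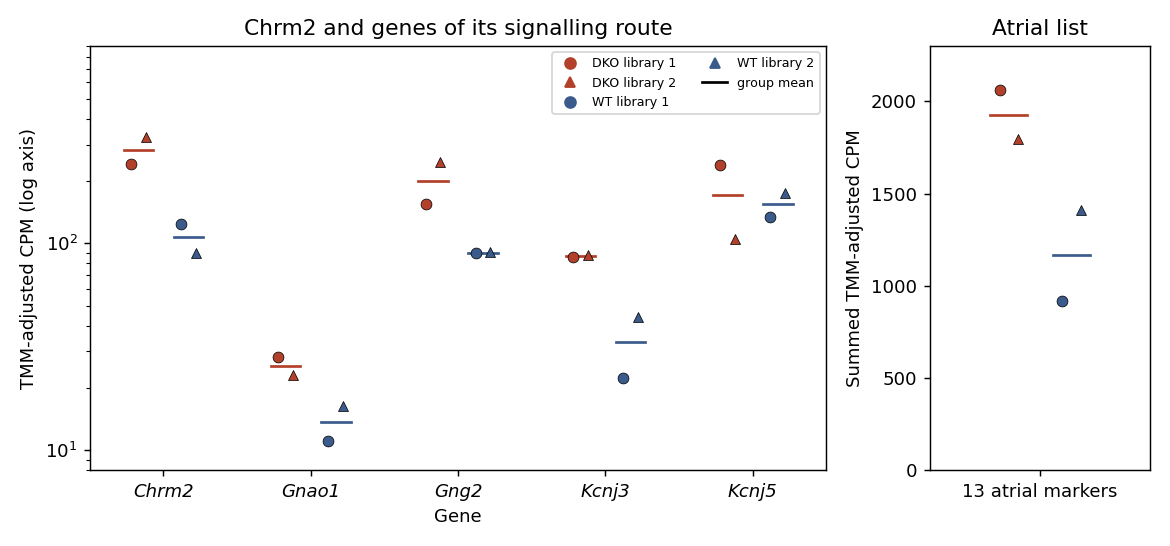
Left, TMM-adjusted CPM (log axis) of Chrm2, Gnao1, Gng2, Kcnj3 and Kcnj5 in each library; right, the summed TMM-adjusted CPM of 13 atrial markers on a linear axis. Circles are library 1 and triangles library 2, DKO left of WT, and bars are group means. The groups separate for Chrm2, Gnao1, Gng2, Kcnj3 and the atrial sum, and overlap for Kcnj5.

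Chrm2, Kcnj3 and Kcnj5 are more abundant in atrial than in ventricular muscle, so the atrial markers are given beside them. The 13 markers, Kcnj3 and Kcnj5 included, summed to 2059.5 and 1794 CPM in double knockout, against 918 and 1410.4 CPM in WT, and 12 of the 13 had a positive fold change, with a median of 0.94. In 7 of them both double knockout libraries lay above both WT libraries, where 25.8% of all genes were so placed. At an unadjusted edgeR p under 0.05 stood 5, all higher, against 8.7% of all genes, and edgeR called 0 after adjustment. DESeq2 called 4 higher, Nppa, Bmp10, Stard10 and the channel gene Kcnj3 itself, against 2.01% of all genes. Other markers, among them Myl7, Sln and Myl4, were not called by DESeq2, with adjusted p-values of 0.564, 0.564 and 0.464. Within each group the library with the lower atrial sum had the higher Chrm2 level. Double knockout library 2 had 326 CPM of Chrm2 beside an atrial sum of 1794 CPM, and WT library 1 had 124 CPM beside 918 CPM. Single atrial markers did not all keep the order of the sum. In double knockout libraries 1 and 2, Nppa was at 480 and 432 CPM and Bmp10 at 21.4 and 40.4 CPM. The 8 markers of the nodes and conduction system summed to 48.9 and 65.2 CPM in double knockout and 35.3 and 54.7 CPM in WT, so that list overlapped. Whether a different share of atrial tissue in the hearts takes part in the Chrm2 difference was not tested.

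The alpha-1 adrenergic receptors, the Gq-coupled receptors for noradrenaline in heart muscle, had fold changes of opposite sign, and neither passed the adjusted threshold. Adra1a (ENSMUSG00000045875, chromosome 14, 66635251 to 66771168) was read 35 and 19 times in the double knockout libraries, against 8 and 9 times in the WT libraries. That corresponds to 1.23 and 1.16 CPM in double knockout, against 0.282 and 0.362 CPM in WT, so the groups did not overlap although the gene had the lowest level of the 7. Its log2 fold change was 1.89 (SE 0.38; edgeR adjusted p = 0.146), and DESeq2 gave Adra1a no adjusted p. Without double knockout library 1 or 2, where a single library stands for the double knockout group, the edgeR adjusted p was 0.0396 and 0.0275. Without WT library 1 or 2 it was 0.971 and 0.574. At these counts the precision is limited by counting error.

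Adra1b (ENSMUSG00000050541, chromosome 11, 43774606 to 43901210) was at 22.5 and 7.59 CPM in double knockout hearts, against 21.4 and 26.5 CPM in WT hearts. Double knockout library 2 stood below the other 3, and library 1 lay between the WT libraries. The 2.97-fold gap within the double knockout pair was exceeded by 0.999% of tested genes, on log2(CPM + 0.5). The log2 fold change was -0.65 (SE 0.51; 95% interval -1.97 to 0.67; edgeR adjusted p = 0.561). Leaving out double knockout library 2 gave -0.09, and leaving out library 1, so that the low library 2 stood alone for its group, gave -1.66. The log2 fold change was -0.81 and -0.51 without WT library 1 and 2. Adra1d, the third alpha-1 receptor gene, was at 1.30 and 0.306 CPM in double knockout, against 1.48 and 1.08 CPM in WT, and its lowest library was also double knockout library 2.

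The ratio of the alpha-1 receptors inside a library does not depend on scaling between libraries. Per kilobase, Adra1a was at 0.0213 and 0.0594 of the level of Adra1b in the double knockout libraries, against 0.00511 and 0.00529 in the WT libraries. On the log2 scale of counts plus 0.5, the mean ratio was -3.42 in double knockout and -6.14 in WT, a difference of 2.72. An exact two-sided permutation test over the 4 libraries gave p = 0.333, the smallest value that 2 against 2 libraries allow. With 4 such ratios compared, adjusted values cannot be smaller.

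Adrb1, the main beta-adrenergic receptor of heart muscle, did not separate the groups. Adrb1 (ENSMUSG00000035283, chromosome 19, 56722199 to 56733113) was at 19.6 and 14.5 CPM in double knockout hearts, against 14.9 and 20.9 CPM in WT hearts. The log2 fold change was -0.07 (SE 0.23), with a 95% interval of -0.63 to 0.50 and an edgeR adjusted p of 0.910. Its sign changed with the library left out, between -0.30 and 0.18. The ratio of Adrb1 to Chrm2 per kilobase was 0.145 and 0.0797 in the double knockout libraries, against 0.215 and 0.416 in the WT libraries, a difference of -1.47 on the log2 scale (exact two-sided permutation p = 0.333, the smallest possible). Adrb3 had too few counts to be tested.

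Among the 28 tested genes of the cAMP arm, which carries the signal of beta receptors, fold changes were positive for 10 and negative for 18 (median -0.15). At an unadjusted p under 0.05, 0 were higher and 7 lower, where 8.7% and 8.63% of all genes were. Both double knockout libraries lay above both WT libraries for 7 and below them for 14, where 25.8% and 25.2% of all genes were so placed. None passed the adjusted threshold in edgeR or DESeq2. Adcy5, one of the main adenylyl cyclases of heart muscle, was at 130 and 102 CPM in double knockout, against 170 and 160 CPM in WT (log2 fold change -0.51, SE 0.14; edgeR adjusted p = 0.185). Akap5, an anchor for protein kinase A, was at 7.65 and 4.89 CPM in double knockout, against 10.9 and 12.9 CPM in WT (log2 fold change -0.91, SE 0.25; edgeR adjusted p = 0.185). Pde4a, a phosphodiesterase that breaks down cAMP, was at 16.8 and 11.5 CPM in double knockout, against 21.4 and 24.5 CPM in WT (log2 fold change -0.69, SE 0.21; edgeR adjusted p = 0.202). The list therefore holds genes that make cAMP and genes that remove it among those with lower values.

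Agtr1a, the type 1 angiotensin receptor gene, had the smallest gap within the WT pair of the 7 receptors, 1.04-fold. Agtr1a (ENSMUSG00000049115, chromosome 13, 30336441 to 30382867) was at 31.2 and 26.6 CPM in double knockout hearts, against 29.1 and 28.0 CPM in WT hearts, and the groups overlapped. Its log2 fold change was 0.02 (SE 0.14), and the 95% interval ran from -0.31 to 0.35 (edgeR adjusted p = 0.958). Its transcript is 89.8% identical over 1145 bases to that of Agtr1b, which had 0.0705 CPM or less in each library. The ratio of Agtr1a to Ednra per kilobase was 0.577 and 0.388 in double knockout, against 0.565 and 0.604 in WT (exact two-sided permutation p = 0.667).

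Of 12 listed genes of the angiotensin system 10 were tested, and fold changes were positive for 8 and negative for 2 (median 0.30). None was called by edgeR or DESeq2. Agt, which encodes the precursor angiotensinogen, was at 3.84 and 2.45 CPM in double knockout, against 1.41 and 2.13 CPM in WT (log2 fold change 0.85, SE 0.35; edgeR adjusted p = 0.293). Mas1, a receptor for an angiotensin fragment, was at 0.353 and 0.367 CPM in double knockout, against 0.775 and 0.683 CPM in WT (log2 fold change -1.02, SE 0.40; edgeR adjusted p = 0.278). Enpep, an aminopeptidase that cleaves angiotensin II, was at 40.3 and 33.8 CPM in double knockout, against 24.0 and 32.6 CPM in WT. Agtr2, the type 2 receptor gene, was at 2.86 and 6.30 CPM in double knockout, against 2.75 and 3.98 CPM in WT, and Ren1, which encodes renin, had too few counts to be tested.

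The endothelin receptors are split by cell type in textbook terms, with Ednra in heart muscle, smooth muscle and pericytes and Ednrb in endothelium and glia. Ednra (ENSMUSG00000031616, chromosome 8, 77663031 to 77724464, minus strand) was at 106 and 135 CPM in double knockout hearts, against 101 and 91.2 CPM in WT hearts. The groups did not overlap, by a margin of 106 to 101 CPM at the nearest libraries. The log2 fold change was 0.32 (SE 0.15, 95% interval -0.03 to 0.68, edgeR adjusted p = 0.326). Without double knockout library 1 or 2 the log2 fold change was 0.48 and 0.14, and without WT library 1 or 2 it was 0.40 and 0.24. The non-coding gene 4933431K23Rik lies on the opposite strand within Ednra, with 329 and 201 counts in double knockout and 306 and 202 in WT, against 3013 and 2201 counts of Ednra in double knockout and 2872 and 2269 in WT.

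Ednrb (ENSMUSG00000022122, chromosome 14, 103814625 to 103844402, minus strand) was at 142 and 85.7 CPM in double knockout hearts, against 108 and 167 CPM in WT hearts. The lowest and the highest library belonged to different groups, yet double knockout library 1 exceeded WT library 1. The libraries differed by 1.65-fold within double knockout and 1.55-fold within WT, and gaps at least that large on log2(CPM + 0.5) were found in 9.05% and 3.01% of tested genes. Its log2 fold change was -0.27 (SE 0.32; 95% interval -1.10 to 0.57; edgeR adjusted p = 0.714). Ednra stood to Ednrb per kilobase as 0.584 and 1.22 in the double knockout libraries, against 0.733 and 0.426 in the WT libraries (exact two-sided permutation p = 0.667).

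Marker sums of the cell types that carry these receptors are given beside them. The 10 endothelial and endocardial markers summed to 1663 and 1851 CPM in double knockout, against 1617 and 1729 CPM in WT, and their groups overlapped, as did those of 10 fibroblast markers. The 10 smooth muscle and pericyte markers summed to 1624 and 1469 CPM in double knockout, against 4149 and 2719 CPM in WT. Most of that gap came from Acta2, a known SRF target, at 535 and 439 CPM in double knockout against 2962 and 1468 CPM in WT. The sum therefore does not measure the number of these cells. All 10 markers had a negative fold change, where 51.3% of all genes had a positive one. A group of 6 of the 10, picked after the values were seen, marks pericytes and does not encode contractile proteins. Both double knockout libraries lay below both WT libraries for Notch3 (log2 fold change -0.51), Rgs5 (-0.33) and Cspg4 (-0.26), where 25.2% of all genes were so placed. The groups overlapped for the other 3 of the 6, Kcnj8 (-0.04), Pdgfrb (-0.02) and Abcc9 (-0.01). Glial markers summed to 64.7 and 68.8 CPM in double knockout and 56.8 and 58.5 CPM in WT, and Sox10, which defines them, was at 0.856 CPM or less in each library. The part of cell composition in the endothelin receptor values was not tested.

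Of 5 listed genes that make or process endothelin 4 were tested, 2 with a positive and 2 with a negative fold change (median 0.17), and neither edgeR nor DESeq2 called any. Edn1, which encodes endothelin 1, was at 14.2 and 23.8 CPM in double knockout, against 14.98 and 9.48 CPM in WT. Ece1, the main endothelin-converting enzyme, was at 148 and 220.4 CPM in double knockout, against 135 and 150 CPM in WT. Ece2, a related enzyme, was at 2.61 and 3.12 CPM in double knockout, against 4.09 and 3.66 CPM in WT (log2 fold change -0.44, SE 0.24; edgeR adjusted p = 0.397).

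In the arm of Gq and G12/13, shared by the alpha-1, angiotensin and endothelin receptors, fold changes were positive for 17 of 27 genes and negative for 10 (median 0.09). At an unadjusted p under 0.05, 3 were higher and 2 lower, near the 8.7% and 8.63% of all genes. Both double knockout libraries lay above both WT libraries for 13 of the 27 and below them for 6, where 25.8% and 25.2% of all genes were so placed. After adjustment edgeR and DESeq2 called 0. Itpr2, the main calcium release channel of the inositol trisphosphate family in heart muscle, was at 98.8 and 108 CPM in double knockout, against 68.3 and 84.1 CPM in WT (log2 fold change 0.44, SE 0.14; edgeR adjusted p = 0.205). Plce1, which encodes phospholipase C epsilon, was at 75.2 and 60.7 CPM in double knockout, against 105 and 87.3 CPM in WT (log2 fold change -0.50, SE 0.15; edgeR adjusted p = 0.203). The alpha subunits themselves, Gnaq and Gna11, had log2 fold changes of -0.02 and -0.05, and Gnas, the alpha subunit of Gs, 0.0045.

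Receptor kinases, arrestins and RGS proteins end the signal of these receptors. Of 15 tested genes 9 had a positive and 6 a negative fold change (median 0.13), with 0 called by edgeR and by DESeq2. At an unadjusted edgeR p under 0.05 stood 3, near the 17.3% of all genes. Both double knockout libraries lay above both WT libraries for 6 of the 15 and below them for 5, where 25.8% and 25.2% of all genes were so placed. Grk3, a receptor kinase, was at 129 and 138 CPM in double knockout, against 102 and 105 CPM in WT (log2 fold change 0.37, SE 0.10; edgeR adjusted p = 0.184). Rgs4, which speeds the shut-off of Gi and Gq, was at 9.10 and 6.42 CPM in double knockout, against 13.6 and 14.1 CPM in WT (log2 fold change -0.83, SE 0.21; edgeR adjusted p = 0.170). Rgs5, a pericyte gene of the same family, was at 325 and 288 CPM in double knockout, against 377 and 391 CPM in WT (log2 fold change -0.33, SE 0.12; edgeR adjusted p = 0.247).

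Transcripts of the nerves that release the ligands were uneven in level. Chat and Slc18a3, which mark cholinergic neurons, had 0 counts in all 4 libraries, and Th, the first enzyme of noradrenaline synthesis, had 0.161 CPM or less in each. Of 12 tested genes of transmitter synthesis, uptake and breakdown 5 had a positive and 7 a negative fold change (median -0.09), and 0 were called by edgeR or DESeq2. Slc5a7, the choline transporter of cholinergic neurons, was read 7 and 51 times in double knockout, against 81 and 75 times in WT, so that double knockout library 1 stood below the other 3. Dbh, the last enzyme of noradrenaline synthesis, was at 2.15 and 0.918 CPM in double knockout, against 1.66 and 2.77 CPM in WT. Slc18a2, another vesicular monoamine transporter, was at 14.3 and 13.7 CPM in double knockout, against 11.1 and 14.0 CPM in WT. Slc6a2, the noradrenaline transporter, was read 4 and 3 times in double knockout, against 12 and 12 times in WT. Slc18a1, a vesicular monoamine transporter, was at 1.20 and 1.28 CPM in double knockout, against 0.458 and 0.563 CPM in WT (log2 fold change 1.27, SE 0.35; edgeR adjusted p = 0.183). Bche, which breaks down choline esters, was at 124 and 90.8 CPM in double knockout, against 140 and 121 CPM in WT.

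Other receptors gave no call either. Of 10 further adrenergic and muscarinic receptor genes 4 were tested, with 3 positive and 1 negative fold change, and the highest of them, the muscarinic receptor Chrm3, was at 1.73 and 1.84 CPM in double knockout, against 1.20 and 1.45 CPM in WT. Of 33 genes for other vasoactive receptors and their accessory proteins 25 were tested, 11 with a positive and 14 with a negative fold change (median -0.06). Among them S1pr1, a sphingosine phosphate receptor, was at 162 and 192 CPM in double knockout, against 154 and 137 CPM in WT. Ramp2, a partner of the adrenomedullin receptor, was at 33.2 and 35.7 CPM in double knockout, against 26.2 and 29.8 CPM in WT, and Ptger3, a prostaglandin E2 receptor, was read 13 and 8 times in double knockout, against 3 and 5 times in WT.

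Over all lists of the signalling routes together, 145 of 169 genes were tested, with 73 positive and 72 negative fold changes and a median of 0.0045. Both double knockout libraries lay above both WT libraries for 42 and below them for 41, near the 25.8% and 25.2% of all genes. At an unadjusted edgeR p under 0.05 stood 9 higher and 15 lower genes, where 8.7% and 8.63% of all genes did, and DESeq2 called 3 higher and 0 lower, where it called 2.01% and 1.8% of all genes.

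The receptors also differed in how firmly each value rested on a single library. Each fit with 1 library left out takes its spread from the pair of the other group alone. Chrm2, Adra1a and Ednra kept a positive fold change and Adra1b a negative one with any 1 library left out. Adrb1, Agtr1a and Ednrb changed sign. Without double knockout library 1, 4 receptors passed the edgeR threshold, Chrm2, Adra1a and Ednra with higher levels and Adra1b with a lower one, among 2795 genes of all; without library 2, Chrm2 and Adra1a passed, among 1364 genes. With either WT library left out, 0 receptors passed.

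**Figure D4:**
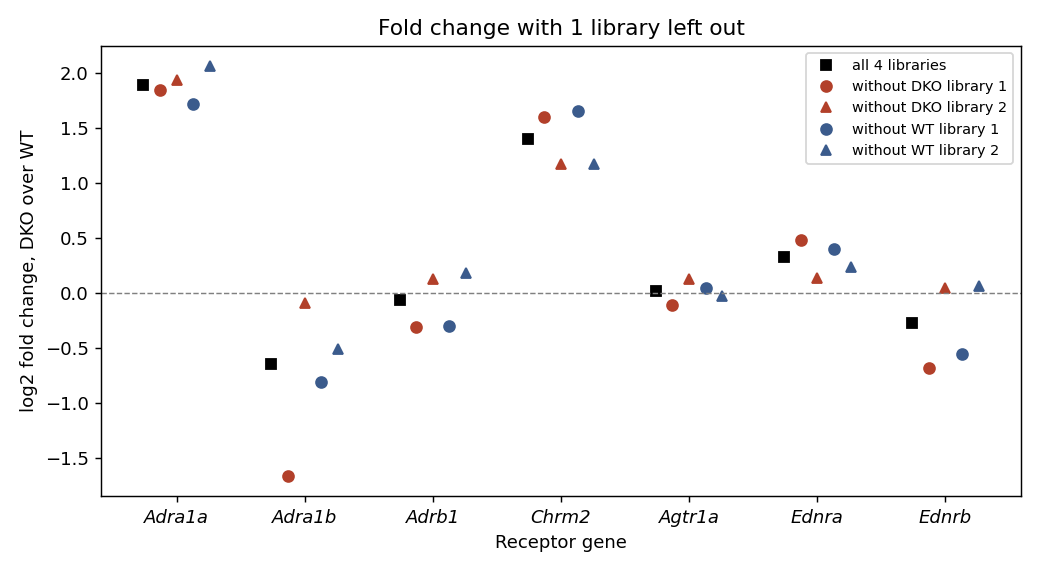
Log2 fold change, double knockout over WT, of each receptor from edgeR with all 4 libraries (black squares) and with 1 library left out (red, a DKO library; blue, a WT library; circles, library 1; triangles, library 2). Adra1b spans -1.66 to -0.09, while Chrm2 stays between 1.17 and 1.65.

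Genes with the most similar profile over the 4 libraries were sought among 10404 to 10405 genes with a mean of at least 5 CPM, as the smallest root mean square difference of centred log2(CPM + 0.5). For Chrm2 the nearest were Lrrc2 (0.142), at 44.3 and 79.3 CPM in double knockout and 26.3 and 18.6 CPM in WT, and Crebrf (0.165), and 0 genes lay within 0.1. For Adra1b they were Bcl11b (0.0492) and Slc25a42 (0.0747), with 4 genes within 0.1, and for Ednrb Spaca6 (0.0491) and Aqp7 (0.0510), with 6 within 0.1. Adra1a was nearest to Chchd5 (0.0517) and Tgfa (0.0589), with 12 within 0.1. Adrb1 was nearest to Ddc (0.0165), which decarboxylates the precursors of dopamine and serotonin, and Sirt4 (0.0215), with 90 within 0.1. The flat or shallow profiles of Agtr1a, close to Derl1 (0.0100), and Ednra, nearest to Mipol1 (0.0191) and Robo2 (0.0199), had 1764 and 544 genes within 0.1. With 4 libraries such likeness is a description of these libraries.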

How the data were processed

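Each library came as 1 deposited table of raw counts per gene. Per the submitters' processing notes, the authors used HTSeq and DESeq 1.10.1 with the mm10 build. The sources used here do not give the aligner, the annotation, the strand setting or how multiply matching reads were treated. Whole numbers with totals that differ between libraries, from 16175259 to 29460641, fit raw counts, and 0 rows name no gene. Identifiers without their version were matched to GENCODE M21, of the same build, for symbols, positions and merged exon lengths (42462 of 43346 matched).

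Counts went into 1 edgeR 4.0.16 quasi-likelihood fit (R 4.3.3) of all 4 libraries across all genes, filtered by filterByExpr at its defaults, scaled by TMM, with robust dispersion and no covariates; an adjusted p under 0.05 counted as a call. The SE is the log2 fold change over the square root of F, and the 95% interval uses the fit's total degrees of freedom. DESeq2 1.42.0 (genes with at least 1 count) and limma-voom 3.58.1 were alternatives. The fits were also run on simulated counts with the same spread for every gene. That run cannot show how the fits behave at the spread of these libraries. Other settings covered scaling, filtering, erythroid and mitochondrial genes, a replicate block and each library left out. Intervals and floors cover counting error and the spread between libraries only. Chi-square values per gene of 39.2 within the double knockout pair and 16.5 within the WT pair exceeded sampling noise, so all libraries were kept apart. Transcripts were compared with blastn 2.17.0, on alignments of at least 100 bases.

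Named genes were the 7 receptors, Mrtfa and Mrtfb, from each list the 3 tested genes with the smallest unadjusted p, and for each receptor the 2 genes with the nearest profile; others, such as Agtr2, Gnas, Gnaq, Gna11, Slc5a7, Dbh, Slc18a2, the smooth muscle and pericyte markers and the genes near Chrm2, were chosen after their values were seen. A few genes that the rule names are not reported here. The members and lists were chosen with earlier results of these data known, and the atrial and nodal lists were added after those results. Lists are described by counts and medians, with no set test. Melanocyte markers summed to 157 and 137 CPM in double knockout and 155 and 146 CPM in WT. Mitf alone held 155 and 132 CPM of that sum in double knockout and 148 and 139 CPM in WT. Dct was at 0.917 and 2.75 CPM in double knockout, against 4.26 and 4.06 CPM in WT. Tyrp1 was read 0 and 0 times in double knockout, against 9 and 10 times in WT. Pmel was also lower in both double knockout libraries, and the groups overlapped for Tyr and Mlana. Leukocyte markers summed to 88.0 and 78.5 CPM in double knockout and 62.6 and 65.4 CPM in WT. Erythroid markers summed to 463 and 806 CPM in double knockout and 752 and 554 CPM in WT, and neuron markers to 44.8 and 69.4 CPM in double knockout and 48.8 and 54.7 CPM in WT. Hand2 alone held 27.9 and 49.6 CPM of the neuron sum in double knockout and 25.4 and 29.7 CPM in WT. Of the 4 neuron markers tested, Hand2 had a positive fold change and the other 3 a negative one. Among those 3, Uchl1 was at 9.66 and 12.7 CPM in double knockout, against 16.9 and 16.8 CPM in WT. Fibroblast markers summed to 3541 and 4576 CPM in double knockout and 4247 and 4551 CPM in WT, and adrenal and thymus markers to 6.91 and 5.81 CPM in double knockout and 5.67 and 6.27 CPM in WT.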

Additional observations from a re-analysis of the deposited data

How the results depend on the processing

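Chrm2 and Adra1a kept a positive fold change and Adra1b a negative one in all settings that gave a value, and none of the 7 receptors lost a call, since none was called with the main settings. Without a filter, Chrm2 (1.38) and Adra1a (1.88) passed, making 2 receptors, 11 genes of the signalling lists and 1514 genes in all; in DESeq2 Chrm2 (1.39) passed, making 1 receptor, 3 list genes and 526 genes, against 12 genes with the main settings. The stricter filter left Adra1a out. Without composition factors the fold change of Adrb1 was 0.0047 in place of -0.07. With 1 library left out, the log2 fold change ranged from 1.71 to 2.06 for Adra1a, -1.66 to -0.0894 for Adra1b, -0.30 to 0.18 for Adrb1, 1.17 to 1.65 for Chrm2, -0.11 to 0.13 for Agtr1a, 0.14 to 0.48 for Ednra and -0.68 to 0.0674 for Ednrb; calls ranged from 0 to 4 receptors, 0 to 29 list genes and 2 to 2795 genes. The cause of these changes was not tested. The within-library ratio differences kept their sign in every setting run, but with 1 library left out they ranged from 0.0636 to 1.13 for Ednra over Ednrb, 1.97 to 3.46 for Adra1a over Adra1b, -1.95 to -0.996 for Adrb1 over Chrm2 and -0.59 to -0.0163 for Agtr1a over Ednra, and a prior count of 5 gave 2.35 in place of 2.72 for Adra1a over Adra1b. The adjusted p over settings that gave one lay between 6.75e-18 and 0.666 for Chrm2 and between 0.00771 and 0.971 for Adra1a.

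A replicate block, with the libraries paired by number, called 2 genes and 0 receptors or list genes. Deviations of same-numbered libraries from their group means correlated at -0.105 across genes. With 2 libraries a group both pairs give this same value, so it cannot settle whether the numbers pair the libraries. With the numbers crossed, a setting chosen after seeing the data, 3 genes, 0 receptors and 0 list genes were called. Depth limits Adra1a most, at 8 to 35 reads per library.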
